A study of Mus musculus with 8 samples.

Results

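Excitatory input reaches parvalbumin-positive (PV+) interneurons mainly through AMPA receptors, and 10 genes that encode the subunits of these receptors or proteins bound to them were followed in ribosome-associated RNA of the mouse primary somatosensory cortex (S1). The members were chosen by gene symbol: the 4 subunits *Gria1*, *Gria2*, *Gria3* and *Gria4*, the transmembrane AMPA receptor regulatory proteins (TARPs) *Cacng2*, *Cacng3* and *Cacng8*, the cornichons *Cnih2* and *Cnih3*, and *Gsg1l*. All 10 were found among the 45706 genes of the deposited tables, and all 10 passed the filter on low counts that left 17495 genes for testing. The mice were PvalbFlp/+;Neurod6Cre/+ and had received, on postnatal day 1, an AAV (flox-fdio) that encodes HA-RPL10a and myc-hM3Dq as a single transcript under the synapsin promoter. This virus needs Flp, is switched off by Cre, and delivers an HA-tagged ribosomal protein together with hM3Dq, a receptor that raises neuronal activity when its ligand clozapine-N-oxide (CNO) is given. The Cre driver was included so that pyramidal cells with transient *Pvalb* expression would not carry the tag. Between postnatal days 42 and 70, mice were given CNO at 1 mg/kg or vehicle in 5 injections over about 48 h, and tagged ribosomes were pulled down with an antibody against HA. Each group had 4 samples, every sample pooled S1 from 4 brains, and the vehicle mice carried the same alleles and the same virus as the CNO mice. The question was which transcripts of PV+ interneurons change with their activity.

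An AMPA receptor is an assembly of 4 subunits that opens a cation channel when it binds glutamate, and most of the fast excitatory current in the brain passes through it. The GluA2 subunit, when its RNA has been edited at the codon of the pore loop known as the Q/R site, makes the channel nearly impermeable to calcium. Cortical PV+ interneurons are known for fast AMPA currents and for receptors that often lack GluA2 and contain GluA1 or GluA4. TARPs and cornichons carry the receptors to the surface and slow their closing, whereas GSG1L, a related membrane protein, is known to weaken receptor responses.

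The pore loop is shown because the calcium permeability of the channel turns on it and because the counts, which are summed over each gene, do not tell edited from unedited transcripts or the flip from the flop exon. The following 45 bases of coding sequence are from the GENCODE transcripts on GRCm38, written 5′ to 3′ on the strand of the gene, with the Q/R site codon in capitals.
Gria1: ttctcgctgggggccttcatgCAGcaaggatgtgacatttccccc
Gria2: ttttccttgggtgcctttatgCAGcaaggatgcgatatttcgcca
Gria3: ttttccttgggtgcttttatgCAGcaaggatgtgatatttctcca
Gria4: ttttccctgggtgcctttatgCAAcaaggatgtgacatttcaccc
The stretch lies in exon 11 of *Gria1* (chr11:57243073-57243117, plus strand), in exon 11 of *Gria2* (chr3:80706890-80706934, minus strand), in exon 11 of *Gria3* (chrX:41610244-41610288, plus strand) and in exon 12 of *Gria4* (chr9:4464116-4464160, minus strand). Counted from the start codon, the capitals are codon 600 of *Gria1*, 607 of *Gria2*, 612 of *Gria3* and 608 of *Gria4*, and all 4 encode glutamine in the genome. *Gria3* differed from *Gria2* at 3 of the 45 bases, *Gria4* at 6 and *Gria1* at 9. Over whole transcripts, at most 2.64% of the 31-base stretches of any member occurred in a transcript of another gene. The kit is not stated to keep the strand, and all members except *Gria1* overlap another annotated gene on one strand or the other. Of the members that the results turn on, *Cacng3* overlaps *Gm44749*, *Cnih3* overlaps *2900069G24Rik*, *Gm16539* and *Gm16547*, *Gsg1l* overlaps *Gm44874*, *Cnih2* overlaps *Yif1a* and *Cacng2* overlaps *A730060N03Rik*, and reads from exons in such overlaps cannot be told apart.

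The total of estimated counts per sample lay between 44064161 and 49413273, at which 3 counts amount to 0.0607 to 0.0681 CPM, a unit in which every library has the same total. This limit holds for counting error alone, since PCR copies of 1 molecule are counted separately. Levels of different genes are compared below in TPM, a measure of transcript abundance that takes transcript length into account, and groups are compared in CPM scaled by edgeR's TMM factors. *Fos*, an immediate early gene that neuronal activity induces, was at 49.1 ± 16.4 CPM in CNO samples and 12.9 ± 2.01 CPM in vehicle samples (SD, n = 4 each), with a log2 fold change of 1.93 and an adjusted p of 0.052 (edgeR's quasi-likelihood test, Benjamini-Hochberg adjustment). It had the smallest adjusted p of all genes.

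The pulldown held RNA of PV+ interneurons together with RNA of other cells. *Pvalb* was at 995 ± 140 TPM in CNO samples and 820 ± 349 TPM in vehicle samples (SD, n = 4 each), or 994 ± 53.9 TPM in vehicle samples without replicate 1 (n = 3). *Gad1*, the enzyme of GABA synthesis, was the most abundant of 12 PV+ interneuron markers. *Nrgn* and *Slc17a7*, the vesicular glutamate transporter of pyramidal cells, had mean TPM of 959 and 433 over the 8 samples. None of the 12 PV+ interneuron markers or the 12 pyramidal cell markers was at 0 in any sample. Vehicle replicate 1 stood apart: its PV+ interneuron markers summed to 1277 TPM against 2712 to 4206 TPM in the other 7 samples, and its pyramidal cell markers to 2835 TPM against 1618 to 2572 TPM. For the results that follow, values without this sample stand beside some of those it moved.

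The 10 members ranged over more than 2 orders of magnitude in level. *Gria2* had the highest mean TPM, 471 ± 123 (SD, 8 samples), and *Cnih2* followed at 165 ± 29.5; the geometric mean of their ratio over the samples was 2.81. *Gria1* came next at 81.3 ± 5.51 TPM, with *Gria4* at 67.5 ± 4.50, *Gria3* at 64.8 ± 4.44 and *Cacng3* at 60.7 ± 11.05. Below them lay *Cnih3* at 47.1 ± 9.30 TPM, *Gsg1l* at 42.7 ± 7.07 and *Cacng2*, which encodes the TARP stargazin, at 15.3 ± 3.70. *Cacng8*, the TARP best known from the hippocampus, was lowest at 1.15 ± 0.152 TPM, with only 36 to 50 counts per sample. The order of the 10 means was the same in the CNO samples alone and in the vehicle samples alone.

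Of the 9 pairs of neighbours in this order, 6 differed in the same direction in all 8 samples, with a p of 0.00781 in the two-sided exact sign-flip permutation test, the smallest that 8 paired samples can give, and 0.0117 after adjustment over the 9 pairs. The other 3 pairs did not differ beyond their spread. *Gria4* exceeded *Gria3* in 6 of 8 samples by a geometric mean ratio of 1.04 (exact permutation p = 0.117, adjusted 0.132). *Gria3* exceeded *Cacng3* in 6 of 8 samples by one of 1.08 (exact permutation p = 0.148, adjusted 0.148), and *Cnih3* exceeded *Gsg1l* in 6 of 8 samples by one of 1.10 (exact permutation p = 0.0703, adjusted 0.0904). The subunits *Gria1*, *Gria3* and *Gria4* varied little among samples, with coefficients of variation of TPM of 6.78%, 6.85% and 6.67%. *Gria2* varied by 26.1% and *Cacng2* by 24.2%, and the other 5 members lay between 13.2% and 19.7%. Vehicle replicate 1 widened the spread of *Gria2* and *Cacng2*, at 729 and 8.52 TPM. The other samples lay at 303 to 526 TPM for *Gria2* and 13.5 to 21.4 TPM for *Cacng2*. Coefficients without vehicle replicate 1 were not computed.

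**Figure D1:**
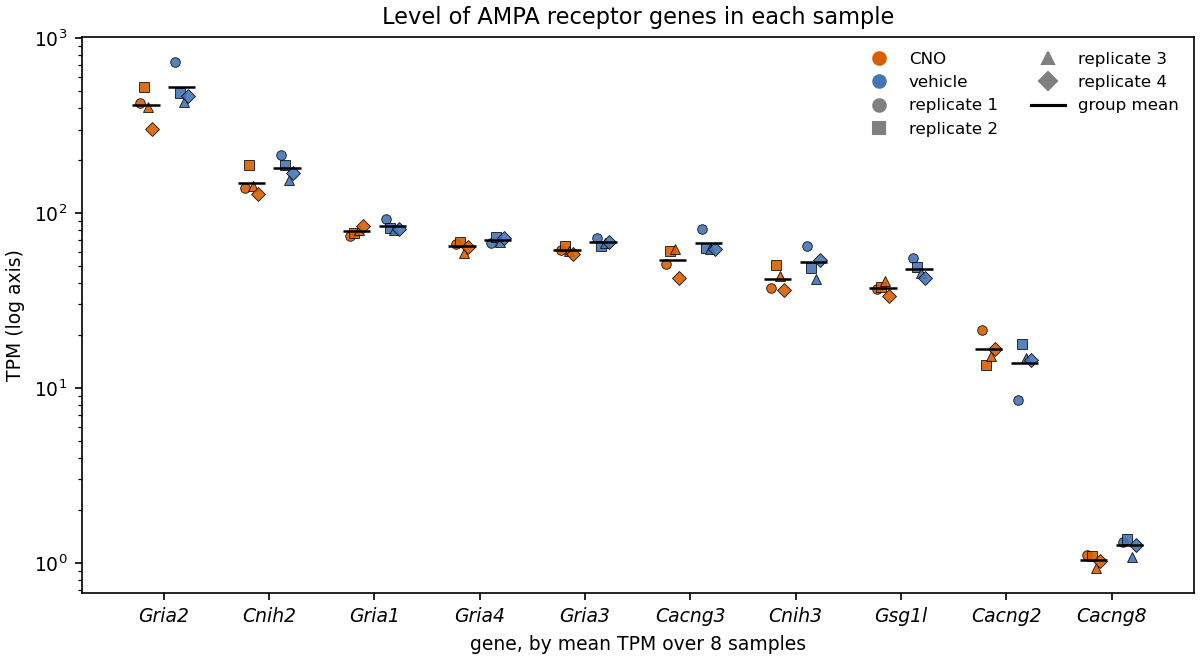
TPM of each of the 10 genes (log axis) in the 4 CNO samples (orange) and the 4 vehicle samples (blue), with a point shape for each replicate number, bars for group means and genes sorted by mean TPM. *Gria2* lies highest in every sample and *Cacng8* lowest, and the circle of vehicle replicate 1 is the highest point of *Gria2* (729 TPM) and the lowest of *Cacng2* (8.52 TPM).

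*Gria2*, whose product decides the calcium permeability of the receptor, had 424, 526, 405 and 303 TPM in CNO replicates 1 to 4 and 729, 483, 433 and 469 TPM in vehicle replicates 1 to 4. Vehicle replicate 1 was the highest of the 8 samples and CNO replicate 4 the lowest. CNO replicates 1, 3 and 4 lay below every vehicle sample, and CNO replicate 2 lay above all vehicle samples except replicate 1. *Gria1* had 73.6, 77.2, 79.9 and 84.8 TPM in CNO samples and 92.3, 81.8, 79.8 and 81.2 TPM in vehicle samples. The *Gria3* values were 61.3, 64.7, 61.0 and 58.6 TPM in CNO samples and 71.9, 64.5, 67.8 and 68.5 TPM in vehicle samples. For *Gria4* they were 66.5, 68.4, 59.0 and 64.1 TPM against 67.7, 73.3, 68.6 and 72.0 TPM. In TPM, a single CNO sample each of *Gria2*, *Gria3* and *Gria4*, replicate 2, reached into the range of the vehicle samples. In TMM-scaled CPM the groups overlapped more, with 2 CNO samples below every vehicle sample for *Gria2*, 1 for *Gria3* and 0 for *Gria4*.

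Of the summed TPM of the 4 subunits, *Gria2* made up most in every sample. Its share was 67.8%, 71.5%, 66.9% and 59.3% in CNO replicates 1 to 4 and 75.9%, 68.7%, 66.7% and 67.9% in vehicle replicates 1 to 4. The groups overlapped, with means of 66.4% ± 5.09 and 69.8% ± 4.14 (SD, n = 4 each), and without vehicle replicate 1 the vehicle mean was 67.8% ± 1.02 (n = 3). *Gria1* took 13.02% ± 2.65 in CNO samples and 11.3% ± 1.19 in vehicle samples. The share of *Gria4* was 10.6% ± 1.44 and 9.62% ± 1.72, and that of *Gria3* 10.0% ± 1.12 and 9.26% ± 1.29, in the same order. Without vehicle replicate 1, the vehicle means were 11.9% for *Gria1*, 10.5% for *Gria4* and 9.85% for *Gria3* (n = 3), and the differences of *Gria4* and *Gria3* from the CNO samples went from 0.93 and 0.78 to 0.072 and 0.18 percentage points. Without CNO replicate 4 the *Gria1* difference went from 1.69 to 0.49 percentage points and that of *Gria2* from −3.40 to −1.05. The *Gria2* difference was −1.37 percentage points without vehicle replicate 1 and −5.09 without CNO replicate 2. The *Gria2* share was highest in vehicle replicate 1, the sample with most pyramidal cell marker RNA. It was lowest in CNO replicate 4, the sample with least. The part of pyramidal cell RNA in this share was not tested. Shares are given as a description, without a test.

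**Figure D2:**
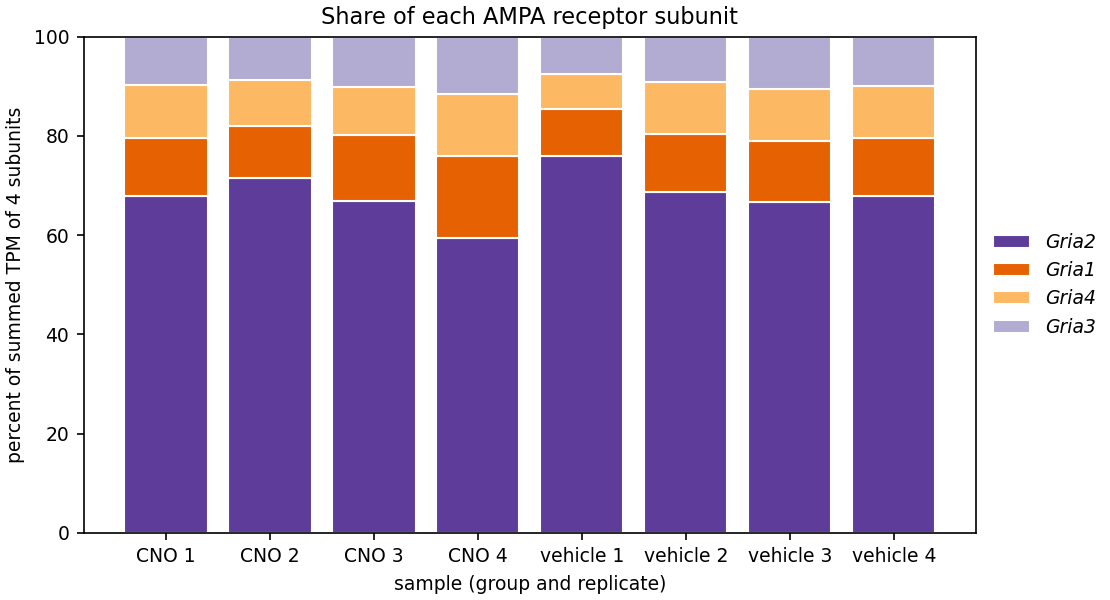
Percent of the summed TPM of *Gria1* to *Gria4* that each subunit took in each of the 8 samples, stacked to 100. The *Gria2* share runs from 59.3% in CNO replicate 4 to 75.9% in vehicle replicate 1, and the remainder is split among the other 3 subunits at 7.05% to 16.6% each.

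CNO was then compared with vehicle for each member within the fit over all 17495 genes. No member was called at an adjusted p under 0.05, and neither was any other gene (0% of the genes tested), with 716 genes at an unadjusted p under 0.05. Of the 10 members, 8 were lower and 2 higher in CNO samples, while 49.6% of all genes tested were lower. The median of the members' log2 fold changes was −0.20, against 0.00 over all genes tested. At an unadjusted p under 0.05, 3 members were lower, *Cacng3*, *Gsg1l* and *Cnih3*, and none was higher. Of all genes tested, 4.09% reached that p in either direction and 2.65% reached it with a lower level in CNO samples. On GRCm38, *Cacng3* lies at chr7:122670492-122769393 (plus strand), *Gsg1l* at chr7:125878420-126082411 (minus strand) and *Cnih3* at chr1:181352628-181460641 (plus strand). All 3 genes encode auxiliary proteins, and each had an adjusted p of 0.817 (edgeR's quasi-likelihood test, Benjamini-Hochberg adjustment), so that the differences did not pass the correction for multiple testing.

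Among the subunits no difference exceeded the spread between replicates. *Gria1* had a log2 fold change of 0.01 (95% interval −0.20 to 0.22), *Gria3* one of −0.06 (−0.24 to 0.12) and *Gria4* one of −0.04 (−0.25 to 0.17). All 3 intervals spanned 0. The *Gria3* value was −0.11 with library size only, −0.15 with limma on log2 TPM (1 or 0.1 added, unadjusted p of 0.0681 and 0.073) and −0.09 without vehicle replicate 2. Without vehicle replicate 1 the *Gria4* value was −0.10, and with the marker index described below as a covariate it was −0.13, at unadjusted p of 0.243 and 0.101 in edgeR's quasi-likelihood test. *Gria2* was at 765 ± 128 CPM in CNO samples and 928 ± 192 CPM in vehicle samples (SD, n = 4 each), a log2 fold change of −0.28 with a standard error of 0.172 and a wide interval of −0.66 to 0.10. Its adjusted p was 0.817 in edgeR's quasi-likelihood test, and without vehicle replicate 1 the log2 fold change was −0.13. The sign of the *Gria1* value turned under 7 of 19 other settings of the fit.

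Of the TARPs, which anchor AMPA receptors at the postsynaptic density, *Cacng3* was the member with the smallest unadjusted p. Its TMM-scaled levels were 47.7, 49.3, 56.1 and 43.7 CPM in CNO replicates 1 to 4 and 65.9, 61.5, 58.7 and 55.7 CPM in vehicle replicates 1 to 4. In words, 3 CNO samples lay below every vehicle sample, and CNO replicate 3 lay just above vehicle replicate 4. The log2 fold change was −0.30 with a standard error of 0.099 (unadjusted p = 0.0124, adjusted p = 0.817, edgeR's quasi-likelihood test), and the exact permutation test over samples gave p = 0.0571. *Cacng3* ranked 92 among the 17495 genes by p. *Cacng2* went the other way, with 54.5, 31.7, 38.7 and 43.9 CPM in CNO samples and 19.4, 43.3, 37.3 and 34.8 CPM in vehicle samples. The highest sample was CNO replicate 1 and the lowest vehicle replicate 1, the other 6 overlapped, and its log2 fold change of 0.32 (SE 0.229, adjusted p = 0.817 in edgeR's quasi-likelihood test) was 0.13 without that sample. *Cacng8* had a log2 fold change of −0.20 with a standard error of 0.206 and an interval of −0.65 to 0.26, which spanned 0. As for *Cacng3*, 3 CNO samples lay below every vehicle sample in CPM and the exact permutation p was 0.0571. Its unadjusted p in edgeR's quasi-likelihood test was 0.354, at only 36 to 50 counts per sample.

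The cornichons, which escort AMPA receptors out of the endoplasmic reticulum, were both lower. *Cnih3* had 38.5, 44.1, 43.6 and 38.6 CPM in CNO replicates 1 to 4 and 56.3, 44.4, 47.1 and 47.6 CPM in vehicle replicates 1 to 4. It was the only member whose groups did not overlap in CPM, by the small gap between CNO replicate 2 and vehicle replicate 2; of all genes tested, 1.63% were without overlap and lower in CNO samples. The log2 fold change was −0.25 with a standard error of 0.0997 (unadjusted p = 0.0321, adjusted p = 0.817, edgeR's quasi-likelihood test), and the exact permutation p of 0.0286 is the smallest that 4 samples against 4 allow. In TPM, the *Cnih3* groups overlapped. Without vehicle replicate 1 its log2 fold change was −0.17 with an unadjusted p of 0.0848 in edgeR's quasi-likelihood test. *Cnih2* had 69.2, 87.4, 71.8 and 65.9 CPM in CNO samples and 94.9, 90.0, 76.4 and 79.3 CPM in vehicle samples, so that CNO replicate 2 sat among the vehicle samples. Its log2 fold change was −0.21 with an interval of −0.46 to 0.04, and −0.16 without vehicle replicate 1.

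*Gsg1l* had 65.6, 62.5, 73.5 and 62.4 CPM in CNO replicates 1 to 4 and 88.5, 83.0, 79.9 and 71.3 CPM in vehicle replicates 1 to 4. As with *Cacng3*, CNO replicate 3 lay above vehicle replicate 4 and the other CNO samples lay below all vehicle samples. The log2 fold change was −0.29 with a standard error of 0.0977 (unadjusted p = 0.0132, adjusted p = 0.817, edgeR's quasi-likelihood test), the exact permutation p was 0.0571, and the gene ranked 100 by p. In TPM its groups did not overlap, at 33.7 to 41.1 in CNO samples and 42.4 to 55.4 in vehicle samples; of all genes tested, 2.54% were without overlap in TPM and lower in CNO samples. The median log2 fold change of all genes was −0.063 on the log2(TPM + 1) scale, against 0.00 in the TMM-scaled fit. The levels of *Gsg1l* and *Cacng3* moved together from sample to sample, with r = 0.96 between their log2 CPM over the 8 samples, given as a description. Without vehicle replicate 1 the log2 fold changes were −0.26 for *Cacng3* and −0.25 for *Gsg1l*, with unadjusted p of 0.0234 and 0.0211 in edgeR's quasi-likelihood test. Both genes kept an unadjusted p under 0.05 in all 19 other settings of the fit, whereas *Cnih3* did so in 12 of them.

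**Figure D3:**
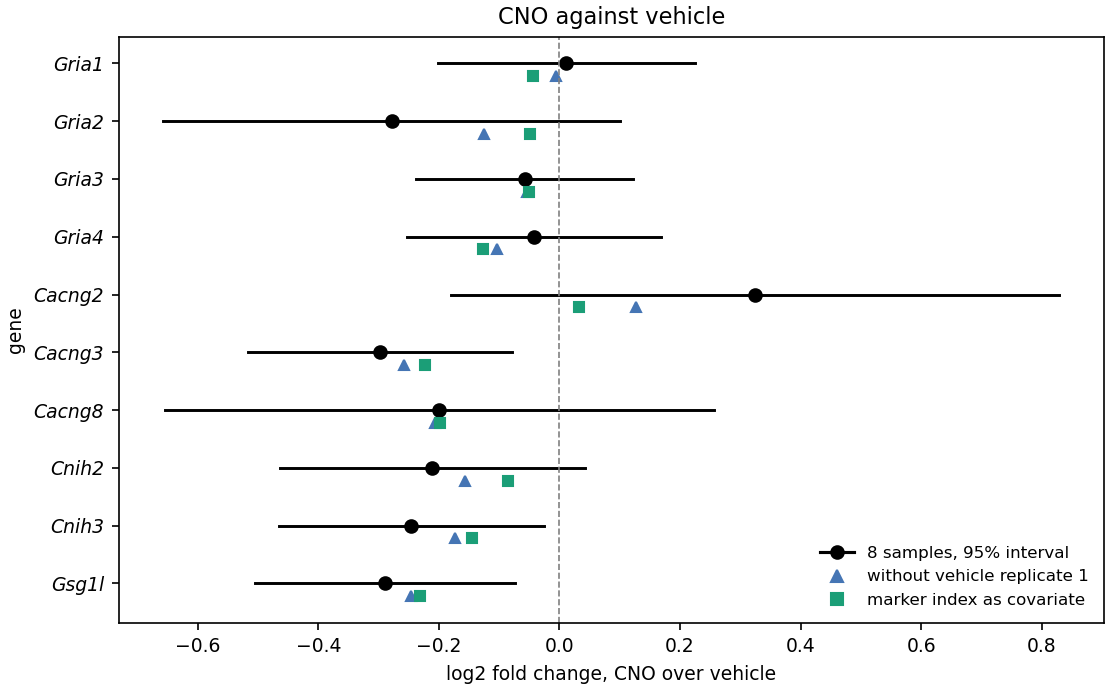
Log2 fold change of each member, CNO over vehicle, from edgeR's quasi-likelihood fit of all 8 samples (black points, bars are 95% intervals), without vehicle replicate 1 (blue triangles) and with the marker index as a covariate (green squares). The intervals of *Cacng3*, *Cnih3* and *Gsg1l* end below 0. Both alternatives for *Gria2*, *Cacng2*, *Cnih2* and *Cnih3* lie nearer 0 than the full fit. So do those for *Cacng3* (−0.26 and −0.22, full fit −0.30) and *Gsg1l* (−0.25 and −0.23, full fit −0.29).

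The makeup of the pulldown was set beside these values through a marker index, the mean log2 CPM of the 12 PV+ interneuron markers minus that of the 12 pyramidal cell markers. It was 1.29, 0.54, 1.13 and 1.73 in CNO replicates 1 to 4 and −0.68, 0.68, 1.17 and 1.03 in vehicle replicates 1 to 4. Vehicle replicate 1 was the one sample with a negative index, CNO replicate 4 had the highest, and the group means of 1.17 ± 0.492 and 0.548 ± 0.847 (SD, n = 4 each) did not differ beyond the spread (two-sided exact permutation test, p = 0.286). The difference between the groups was 0.62, and 0.21 without vehicle replicate 1. All 12 PV+ interneuron markers were higher in CNO samples, 1 of them (*Gad2*) at an unadjusted p under 0.05, and 10 of 12 pyramidal cell markers were lower, none at that p. With that sample left out, 11 of the 12 PV+ interneuron markers were higher, their median log2 fold change was 0.19 in place of 0.43, and *Kcnc1* was lower at −0.06. In such bulk samples, fewer cells of a type and less RNA per cell cannot be told apart.

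By Pearson's r, 4 members moved with the index across the 8 samples past the adjustment, and by Spearman's rho 2 of them, *Gria2* and *Cnih2*, did. The 10 relations were tested over all orders of the samples and adjusted together, separately for r and rho; unadjusted p of r were 0.000744 for *Gria2*, 0.000149 for *Cnih2*, 0.0141 for *Cacng2*, 0.0121 for *Cnih3*, 0.0399 for *Cacng3* and 0.0727 for *Gsg1l* (exact permutation test). *Gria2* fell with a rising index at r = −0.94 and rho = −0.88 (exact permutation, adjusted p = 0.00372 for r and 0.0362 for rho), and without vehicle replicate 1 and CNO replicate 4, the samples farthest from the median index, r was −0.75. For *Cnih2*, r was −0.88 and rho −0.95 (exact permutation, adjusted p = 0.00149 and 0.0114), and r was −0.94 without these samples. *Cacng2* went up with the index at r = 0.87 and rho = 0.81 (exact permutation, adjusted p = 0.0353 and 0.0726), with r = 0.52 without them. *Cnih3* had r = −0.85 and rho = −0.69 (exact permutation, adjusted p = 0.0353 and 0.138), but r = −0.26 without these samples, so that its relation rested on them.

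The remaining 6 members had no relation past the adjustment by either measure. *Cacng3* had r = −0.71 and rho = −0.67 (exact permutation, adjusted p = 0.0798 and 0.138) and *Gsg1l* r = −0.64 and rho = −0.55 (exact permutation, adjusted p = 0.109 and 0.244), and without vehicle replicate 1 and CNO replicate 4 the r values were −0.09 and 0.09. With the index as a covariate in the fit, *Cacng3* had a log2 fold change of −0.22 and *Gsg1l* one of −0.23, at unadjusted p of 0.0213 and 0.0208 (edgeR's quasi-likelihood test). For *Cnih3* the log2 fold change was then −0.15, at an unadjusted p of 0.0724 in edgeR's quasi-likelihood test. *Gria2* was at −0.05, *Cnih2* at −0.09 and *Cacng2* at 0.03. Like the values of *Cacng3*, *Gsg1l* and *Cnih3*, each was nearer 0 than in the fit without the index.

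**Figure D4:**
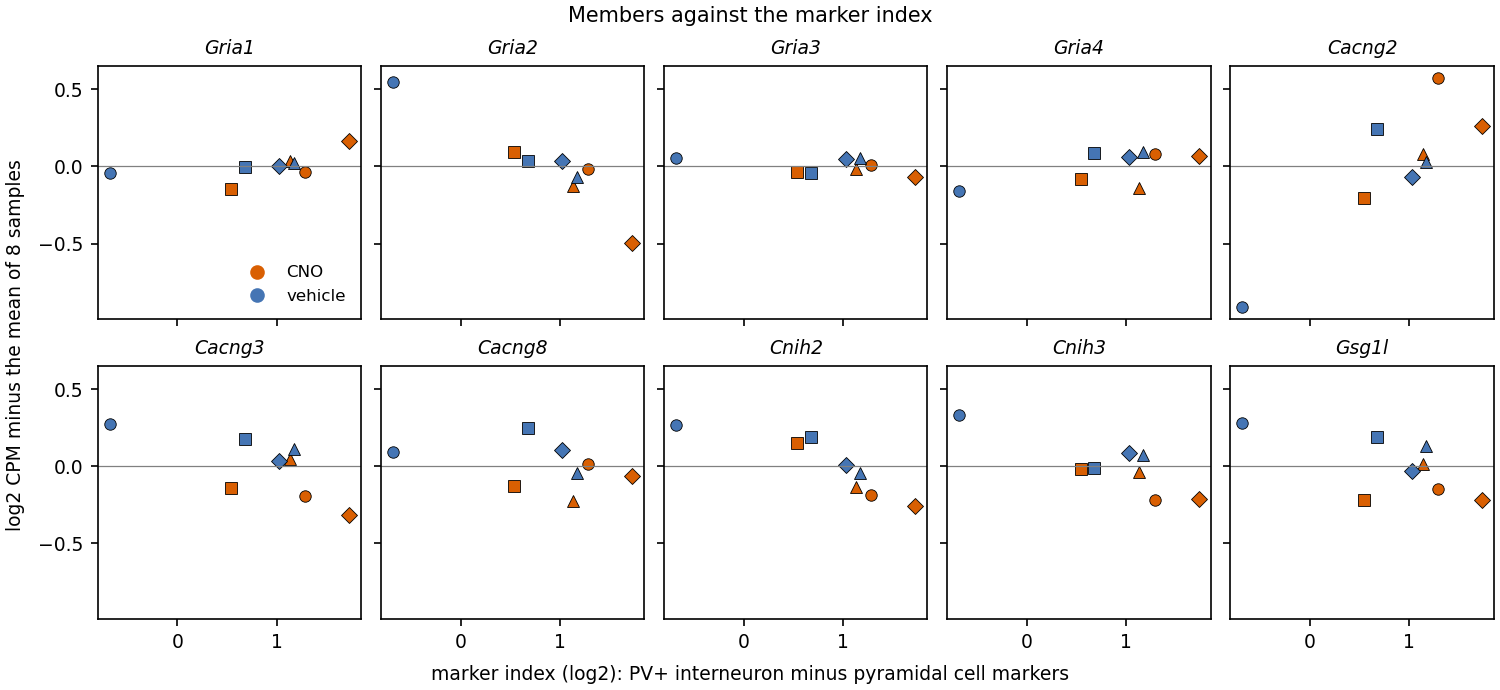
Log2 CPM of each member minus its mean over the 8 samples (vertical axis) against the marker index (horizontal axis, log2), for CNO (orange) and vehicle (blue) samples with the point shapes of the replicates as circle (1), square (2), triangle (3) and diamond (4). *Gria2* and *Cnih2* slope down from vehicle replicate 1 at the left (index −0.68) to CNO replicate 4 at the right (index 1.73), *Cacng2* slopes up, and *Gria1* and *Gria3* stay near 0.

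Markers of other cells moved as follows between the groups. All 4 oligodendrocyte precursor markers, all 6 microglia markers and 7 of 8 astrocyte markers were lower in CNO samples, with only *P2ry12* of microglia at an unadjusted p under 0.05. When vehicle replicate 1 was left out, *P2ry12* was at an unadjusted p of 0.140 in edgeR's quasi-likelihood test and 1 of the 6 microglia markers was higher. *Mog* and *Cnp*, which myelinating cells express, had log2 fold changes of −0.27 and −0.24 at unadjusted p of 0.075 and 0.090 in edgeR's quasi-likelihood test. Both belong to a marker list that is otherwise not reported here, and their unadjusted p were the smallest in it. Of the 6 blood vessel markers, 5 were higher, none at an unadjusted p under 0.05. The other interneuron markers were split evenly, 4 higher and 4 lower, and *Lamp5*, a marker of neurogliaform cells, and *Reln* were lower at an unadjusted p under 0.05 (0.0304 and 0.0569 without vehicle replicate 1, edgeR's quasi-likelihood test). Summed over their lists, the astrocyte markers (most abundant gene *Slc1a3*) came to 226 to 348 TPM in CNO samples and 277 to 410 TPM in vehicle samples, and those of microglia (*P2ry12*) to 41.95 to 66.6 TPM against 52.8 to 79.9 TPM. Precursor markers (*Olig2*) summed to 15.7 to 25.2 TPM against 21.2 to 27.5 TPM, blood vessel markers (*Vtn*) to 43.1 to 98.97 TPM against 58.7 to 84.9 TPM, and the other interneuron markers (*Lamp5*) to 457 to 533 TPM against 522 to 597 TPM. The vehicle sums without replicate 1 were 277 to 325 TPM for astrocyte markers and 52.8 to 61.7 TPM for microglia markers. Precursor markers then summed to 21.2 to 26.8 TPM in vehicle samples. None of these markers was at 0 in any sample. The part of these cells in the differences of *Cacng3*, *Gsg1l* and *Cnih3* was not tested.

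The lower levels of 3 auxiliary members were set beside 39 other genes of AMPA receptor assembly and anchoring, all of which passed the filter on low counts. None of the 39 was called or reached an unadjusted p under 0.05, and none had groups without overlap in CPM. Over all 17495 genes tested, 4.09% reached that p and 423 genes were without overlap, in either direction. Of the 39, 21 were higher and 18 lower, and their median log2 fold change was 0.03. Leaving out vehicle replicate 1, 15 were higher and 24 lower with a median of −0.04. *Shisa6* alone was then at an unadjusted p under 0.05, as were 400 of all 17661 genes tested. Many values of single genes below moved by more than 1.5 times with that sample. The other TARPs *Cacng4*, *Cacng5* and *Cacng7* lay at 6.13, 1.98 and 1.12 TPM over the 8 samples, below *Cacng3*, and their log2 fold changes ran from −0.07 to 0.04. *Shisa6*, of the CKAMP family that slows or hastens desensitization, had the lowest value of the 39, −0.47 with a standard error of 0.222 and an unadjusted p of 0.060 in edgeR's quasi-likelihood test, and without vehicle replicate 1 it was at −0.58 with an unadjusted p of 0.0286. The other 3 CKAMP genes lay between −0.01 and 0.11. *Syndig1*, *Prrt1* and *Prrt2*, which encode a further family of associated membrane proteins, were abundant at 82.5, 40.9 and 116 TPM and lay between −0.10 and 0.10. The other cornichons *Cnih1* and *Cnih4*, which encode widely expressed cargo receptors, were at 0.25 with a standard error of 0.191 (0.08 without vehicle replicate 1) and at −0.05.

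Of the genes that act on the receptor in the endoplasmic reticulum, *Frrs1l* (130 TPM) was at −0.09 and *Cpt1c* at −0.05, while *Sacm1l* was at 0.27 with a standard error of 0.169 and at 0.12 without vehicle replicate 1. The neuronal pentraxins *Nptx1*, *Nptx2* and *Nptxr*, which cluster AMPA receptors from outside the cell and of which *Nptx2* is induced by activity in excitatory neurons, lay between −0.05 and 0.09. In TPM, *Olfm2* was without overlap, at 75.7 to 82.5 in CNO samples and 84.0 to 85.7 in vehicle samples. Of all genes tested, 2.54% were without overlap in TPM and lower in CNO samples. The log2 fold change of *Olfm2* in the TMM-scaled fit was −0.02. *Olfm1* was the most abundant gene of these lists at 1279 TPM, with a log2 fold change of −0.03. The 12 scaffolds and trafficking adaptors comprised 8 higher and 4 lower genes, with a median of 0.10. With vehicle replicate 1 left out, 7 were higher and the median was 0.04. Among them *Dlg4*, which encodes PSD-95, was at 0.08 (−0.11 without vehicle replicate 1), *Grip1* at 0.12 and *Pick1*, which binds the tail of GluA2, at −0.03, none past the spread between replicates. *Adarb1*, which encodes ADAR2, the enzyme that edits the Q/R site of *Gria2*, had the highest value of the 39. It was at 213 ± 42.4 CPM in CNO samples and 166 ± 41.2 CPM in vehicle samples (SD, n = 4 each), a log2 fold change of 0.36 with a standard error of 0.198 and an unadjusted p of 0.095 in edgeR's quasi-likelihood test. Its log2 fold change was 0.22 without vehicle replicate 1.

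**Figure D5:**
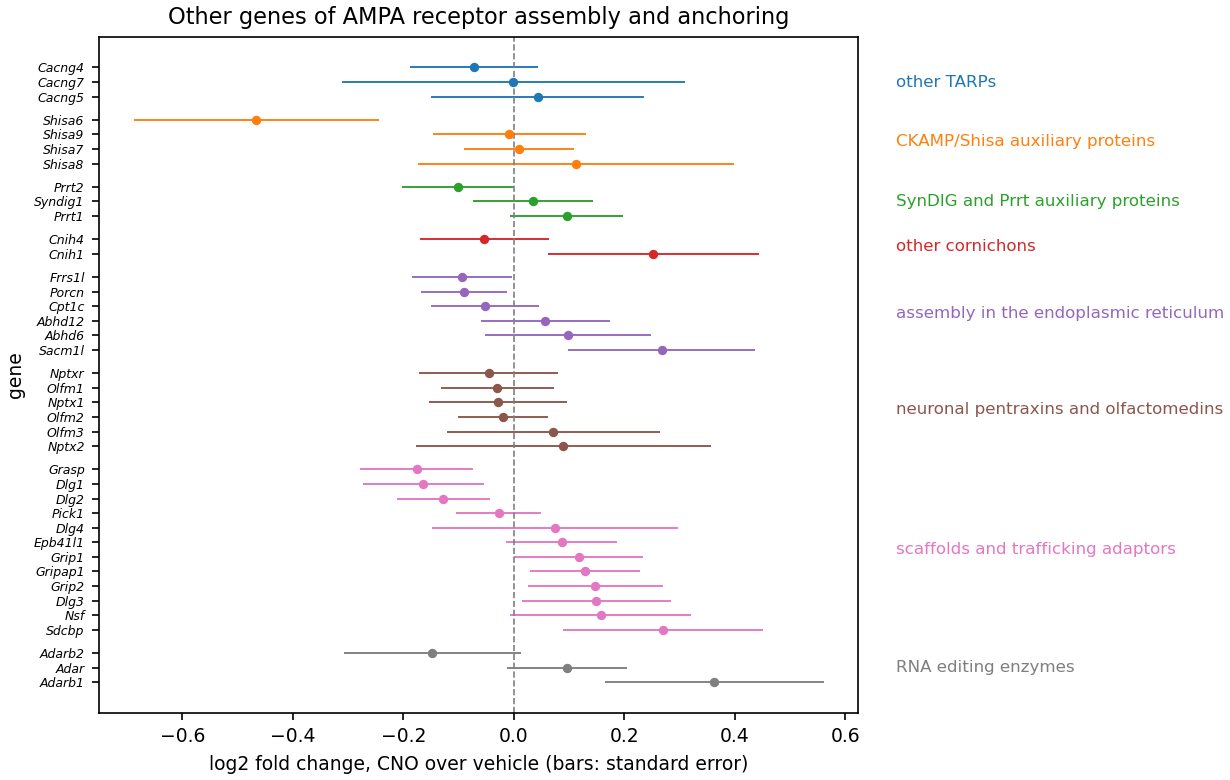
Log2 fold change, CNO over vehicle, of 39 other genes of AMPA receptor assembly and anchoring (points) with standard errors (bars), grouped and coloured by role. Values run from −0.47 (*Shisa6*) to 0.36 (*Adarb1*), and 21 points lie above 0 and 18 below.

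For each subunit, the 3 genes with the most similar log2 CPM profile over the 8 samples were looked up among 15172 genes with a mean TPM above 1. *Gria2* was most like *Fan1*, *Gcfc2* and *Tia1*, each at r = 0.99. *Gria1* was most like *Bcl6* and *Gm4285*, both at 0.97, and *Tti2* at 0.96. *Gria3* was most like *Notch2* and *Vldlr* at 0.95 and *6430531B16Rik* at 0.94, and *Gria4* was most like *Thbs2* (0.96), *H2afy2* (0.95) and *Ifit2* (0.93). With 8 samples that share libraries and a common range of pulldown makeup, these are the highest of many values and are given as a description.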

How the data were processed

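The authors prepared libraries from the pulled-down RNA with the SMARTer Ultra Low kit, used Trim Galore for trimming, STAR for alignment to GRCm38, and Salmon with tximport to estimate counts; versions are not given in the sources used here. They deposited estimated counts per gene, without normalization, and TPM. TPM divides counts by effective transcript length and scales every sample to a common total. It therefore carries no TMM scaling, and group differences in TPM and CPM can differ. The TMM factors, 0.958 to 1.06, act alike on all genes of a sample, while the division by effective length is made for each gene. The part of each in these differences was not tested. Gene symbols were joined by gene identifier, and *Epb41l1* was matched by identifier because the deposited table lists an older symbol. Counts were rounded to whole numbers. Genes with under 10 counts in at least 4 samples were left out, and CNO was compared with vehicle in R 4.3.3 with edgeR 4.0.16 (TMM, quasi-likelihood test, Benjamini-Hochberg adjustment over all 17495 genes), with a common biological coefficient of variation of 0.183. Log2 CPM of single samples used a prior count of 2. For a single value, the two-sided exact permutation test ran over all 70 ways to split the 8 samples into 4 and 4. Positions, exons and coding sequence came from GENCODE mouse release M21. The tests were tried on simulated data first.

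The authors used edgeR's robust dispersion and named a two-sided Wald test, which edgeR has no function for. Alternatives were that dispersion with the likelihood ratio test, the Wald test of DESeq2 1.42.0, other scalings and filters, limma 3.58.1 on log2 TPM with 1 or 0.1 added, covariates, and leaving out each sample in turn. Marker and pathway lists without vehicle replicate 1 were added after seeing the data. Genes named are the 10 members, fixed lists of other AMPA receptor genes and cell type markers, *Fos*, and the 3 genes most like each subunit; 1 marker list is not reported here. The members and lists were chosen with earlier results of these data known, so none is independent support. The labels do not say that replicate numbers mark shared litters or days. Plots were drawn with matplotlib 3.10.9.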

Additional observations from a re-analysis of the deposited data

Results flagged for a closer look

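In 4 of 34 groups of 4 samples, 1 sample stood far from the other 3 by Dixon's ratio of the gap to the group's range; chance flags about 1 in 20 groups, or 1.7 here. *Gria2* in vehicle replicate 1 had a log2 CPM of 10.2 against 9.63 to 9.73 in the other vehicle samples (ratio 0.834). *Gria4* was lowest in the same sample, at 6.20 against 6.42 to 6.45 (ratio 0.891), and so was its share of the summed subunit TPM, at 7.05% against 10.4% to 10.6% (ratio 0.960). *Gria3* in vehicle replicate 2 was at 6.94 against 7.03 to 7.04 (ratio 0.911), a gap of small size. Vehicle replicate 1 is also the sample with the lowest marker index.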

How the results depend on the processing

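Of the 190 values of the 10 members under 19 other settings each, 183 kept their direction. The 7 that turned were all of *Gria1*: −0.044 with library size only, −0.085 and −0.086 with limma on log2 TPM with 1 and 0.1 added, −0.045 with the marker index as a covariate, and −0.0097, −0.054 and −0.0057 without CNO replicate 3, CNO replicate 4 and vehicle replicate 1, with a range of −0.054 to 0.060 over the 8 fits that left out a sample; the cause was not tested. Over all genes, 15 were called with the robust dispersion and likelihood ratio test, 11 with DESeq2, 4 with no filter on low counts and 3 with replicates 1 and 2 against 3 and 4 as a covariate, and 0 to 2 without 1 sample (2 without CNO replicate 1); no member was among them, with adjusted p of 0.473 or above in every setting. Between 2 and 4 members had an unadjusted p under 0.05. Of all genes tested, 330 of 17738 reached that p without CNO replicate 4, where 2 members did. Without CNO replicate 2, the setting with 4 members, 1699 of 17642 genes did. With the replicate block, 0 genes were called and 2 members, *Cacng3* and *Gsg1l*, were at that p. Same-numbered samples deviated together at r = 0.03, −0.03, 0.16 and 0.24, so that the numbers were not taken as pairs. CNO replicates 1 to 4 deviated most like vehicle replicates 2, 1, 3 and 3, at r = 0.21, 0.43, 0.16 and 0.33. With replicates 1 and 2 against 3 and 4 as a covariate, 1193 of 17495 genes reached that p, against 716 in the main fit. In that setting 3 members did. Without vehicle replicate 1 and CNO replicate 4, the r with the marker index turned to 0.672 for *Gria3* and 0.0857 for *Gsg1l*, by the loss of the 2 samples. The order of the 10 levels held without any 1 sample. The lowest counts were those of *Cacng8*, at 36 to 50 per sample.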

Other observations

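Among the subunits, the summed TPM of *Gria1* to *Gria4* was 619 ± 92.9 in CNO samples and 751 ± 142 in vehicle samples (SD, n = 4 each), with 961 in vehicle replicate 1 and a vehicle mean of 681 ± 27.9 without it (n = 3). Apart from *Gsg1l* and *Cacng3*, the members whose log2 CPM moved together most closely over the 8 samples were *Cacng3* and *Cnih3* (r = 0.85) and *Gria2* and *Cnih2* (r = 0.84), and *Cacng2* and *Cnih3* moved in opposite directions (r = −0.90). *Trp53bp1* alone took 9.47% to 15.7% of all counts of a sample, most in vehicle replicate 1; it was named after its values were seen.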
